A study of Mus musculus with 4 samples.

Results

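Oxidative phosphorylation couples the oxidation of NADH and succinate to the synthesis of ATP in the inner mitochondrial membrane. Electrons enter at complex I (NADH dehydrogenase) or complex II (succinate dehydrogenase), pass through complex III (the cytochrome bc1 complex) to complex IV (cytochrome c oxidase), and the proton gradient that results drives complex V (ATP synthase). Most subunits are encoded in the nucleus, and a small remainder is encoded by the mitochondrial genome, so 2 sets of transcripts made in different compartments supply the same complexes. Resting and alternatively activated macrophages are known for relying on this pathway, whereas macrophages activated by bacterial products rely more on glycolysis.

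The nuclear subunit genes were taken by their symbols: names beginning Nduf followed by a letter of the A, B, C, S or V series and a digit, Ndufab1, the Sdh genes, and names beginning Uqcr, Cox4 to Cox8 or Atp5, without processed pseudogenes. This gave 85 of the 27998 genes in the count table, with 38 in complex I, 4 in complex II, 8 in complex III, 18 in complex IV and 17 in complex V. The choice by name leaves out Cyc1, the cytochrome c1 of complex III, which is reported among neighbouring genes below. It takes in Atp5sl and Atp5s, which carry an ATP synthase name but are not structural subunits. It also places Ndufa4 with complex I, although its product is known as a complex IV subunit.

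Liver immune cells of C57BL/6J mice, sorted as CD45+ CD146- from the non-parenchymal fraction, were measured in 4 droplet libraries of single-cell RNA, 2 for a control diet and 2 for the diet labelled Amylin liver NASH (AMLN), a dietary model of non-alcoholic steatohepatitis. The labels give no age, sex or time on diet and do not say whether a library is 1 mouse or a pool, so every p-value reflects the library-to-library spread alone, which may be technical. Flavopiridol, which blocks transcription, was present while all livers were digested.

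The 2 control libraries held 5513953 and 5684819 unique molecular identifiers (UMIs, counted RNA molecules) and the 2 NASH libraries 13749657 and 15619962, in 1550 to 1933 barcodes each. After filtering, 6158 cells remained, and pairs of libraries shared 2 to 8 barcodes. Mitochondrial UMIs made up a median of 6.43% and 6.23% in control and 3.43% and 3.21% in NASH libraries. Cells were clustered, and clusters were named from marker genes, giving 3590 macrophage-like cells, defined by C1q genes. Within them, 1804 control and 788 NASH cells, called Kupffer-like, lay in clusters where at least 80% of cells held the Kupffer cell genes Clec4f and Vsig4. The 2 control libraries stood apart from each other: a cluster led by Fkbp5, Lepr and Cd163 held 842 cells of control library 1 and 91 of control library 2, while one with Marco, Cxcl13 and Hmox1 as leading genes held 94 and 717.

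In macrophage-like cells the subunit genes together took a larger share of all UMIs under the NASH diet. They made up 1.88% and 1.82% of UMIs in control libraries and 2.37% and 2.40% in NASH libraries, or 1.85% ± 0.0406 against 2.39% ± 0.0223 (SD, n = 2 each), a ratio of 1.29. The 2 diets did not overlap, but 2 libraries against 2 cannot give an exact permutation p below 0.333. The ratio was 1.35 for complex I, 1.22 for complex II, 1.17 for complex III, 1.24 for complex IV and 1.35 for complex V. In absolute terms a cell held 61.2 ± 5.76 subunit UMIs in control libraries and 200 ± 11.0 in NASH libraries (SD, n = 2 each). That count includes the difference in depth, since the median macrophage-like cell held 2979 ± 191 UMIs against 7920 ± 498, and a fuller cell cannot be told apart from a more deeply sampled one.

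**Figure D1:**
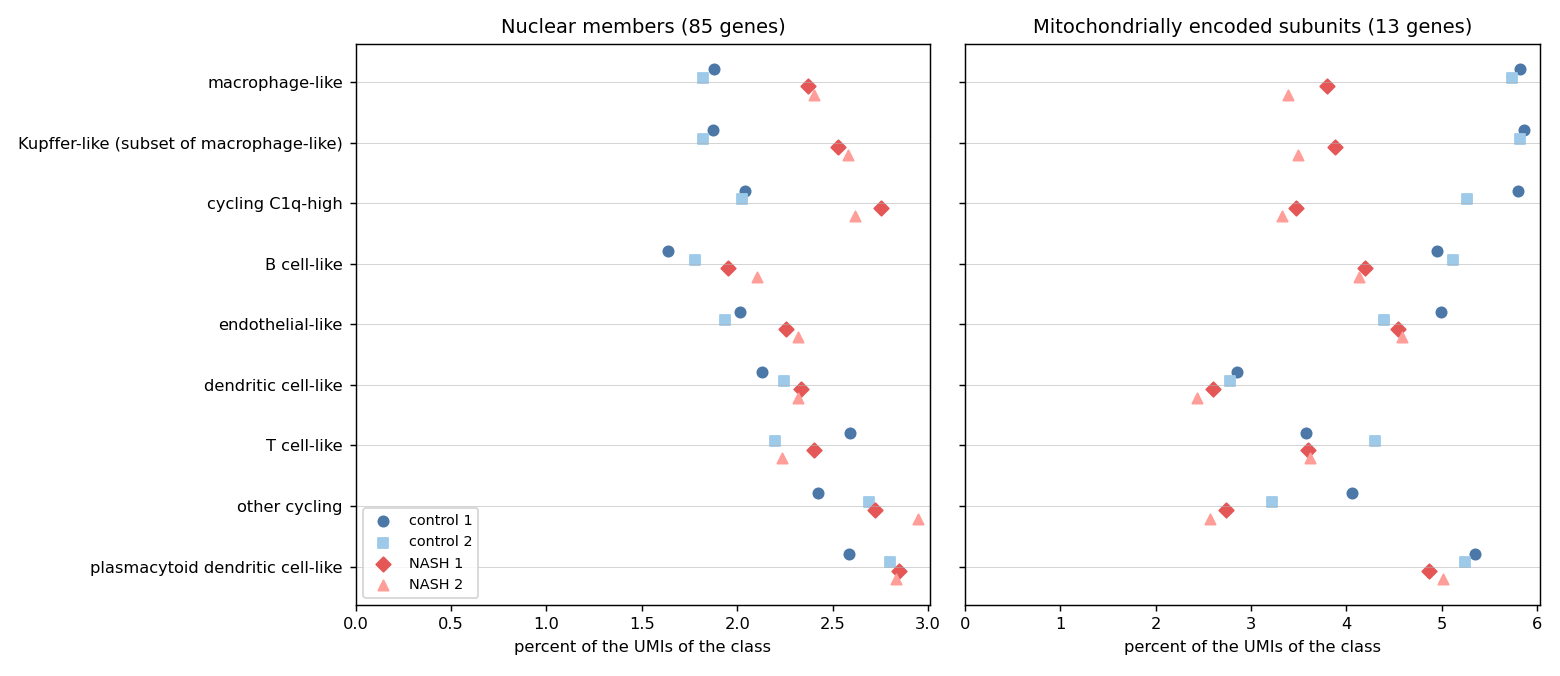
Share of UMIs (percent, horizontal axes from 0) from the 85 nuclear subunit genes (left) and the 13 mitochondrially encoded subunits (right), by cell class (rows) and library (symbols). In macrophage-like cells the NASH libraries lie at 2.37% and 2.40% for the nuclear genes, right of both controls, and at 3.79% and 3.38% for the mitochondrial genes, left of both controls.

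Other classes differed in both the level and the change of this share. Plasmacytoid dendritic cell-like cells held 2.69% ± 0.151 in control and 2.84% ± 0.0109 in NASH libraries. T cell-like cells held 2.40% ± 0.279 and 2.32% ± 0.118, with overlapping diets. Dendritic cell-like cells held 2.19% ± 0.0829 and 2.32% ± 0.0103, B cell-like cells 1.71% ± 0.0999 and 2.03% ± 0.109, and endothelial-like cells 1.97% ± 0.0565 and 2.29% ± 0.0444 (SD, n = 2 for each value). The dendritic cell-like class joined clusters in a mix that differed between diets. Its cluster led by Fscn1, Ccr7 and Ccl22 held 0 and 4 control and 52 and 42 NASH cells. The part of this mix in the dendritic cell-like values, here and below, was not tested. The B cell-like class held 41 and 55 control and 47 and 92 NASH cells. A finer clustering left it 40 and 53 control and 28 and 58 NASH cells. A separate C1q-high cluster with B cell genes, Gpnmb and Ms4a7 then held 1 and 2 control and 19 and 34 NASH cells. The part of such mixed droplets in the B cell-like values, here and below, was not tested. Cycling C1q-high cells held 2.03% ± 0.0110 and 2.69% ± 0.0962. The ratio of shares between diets rose with the ratio of median UMIs per cell across the 8 classes measured in all libraries (Spearman rho = 0.90, n = 8 classes, which share their 4 libraries and their depth). For example, median depth differed 2.66-fold in macrophage-like and 3.55-fold in cycling C1q-high cells, 1.79-fold in B cell-like cells, and 1.08-fold in plasmacytoid dendritic cell-like cells. Within macrophage-like cells of 2000 to 6000 UMIs the share was 1.84% and 1.80% in control and 2.23% and 2.22% in NASH libraries.

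Gene by gene, 68 of the 80 subunit genes that could be tested rose in macrophage-like cells of the NASH libraries. Counts were summed per library and tested by quasi-likelihood in edgeR, and p-values were adjusted over all 10294 genes tested by the Benjamini-Hochberg method. Of 80 members that passed the filter on low counts, 68 were higher at an adjusted p under 0.05, none was lower and 12 were not called. Among all genes tested 23.2% were called higher and 21% lower. The median log2 fold change of the 80 tested members was 0.85, against -0.02 over all genes. None was called lower by DESeq2 either, which called 66 higher, and no member had an unadjusted p under 0.05 in the lower direction. Levels below are CPM (counts scaled to a common library total), scaled by edgeR's TMM factors, and are not compared between genes.

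**Figure D2:**
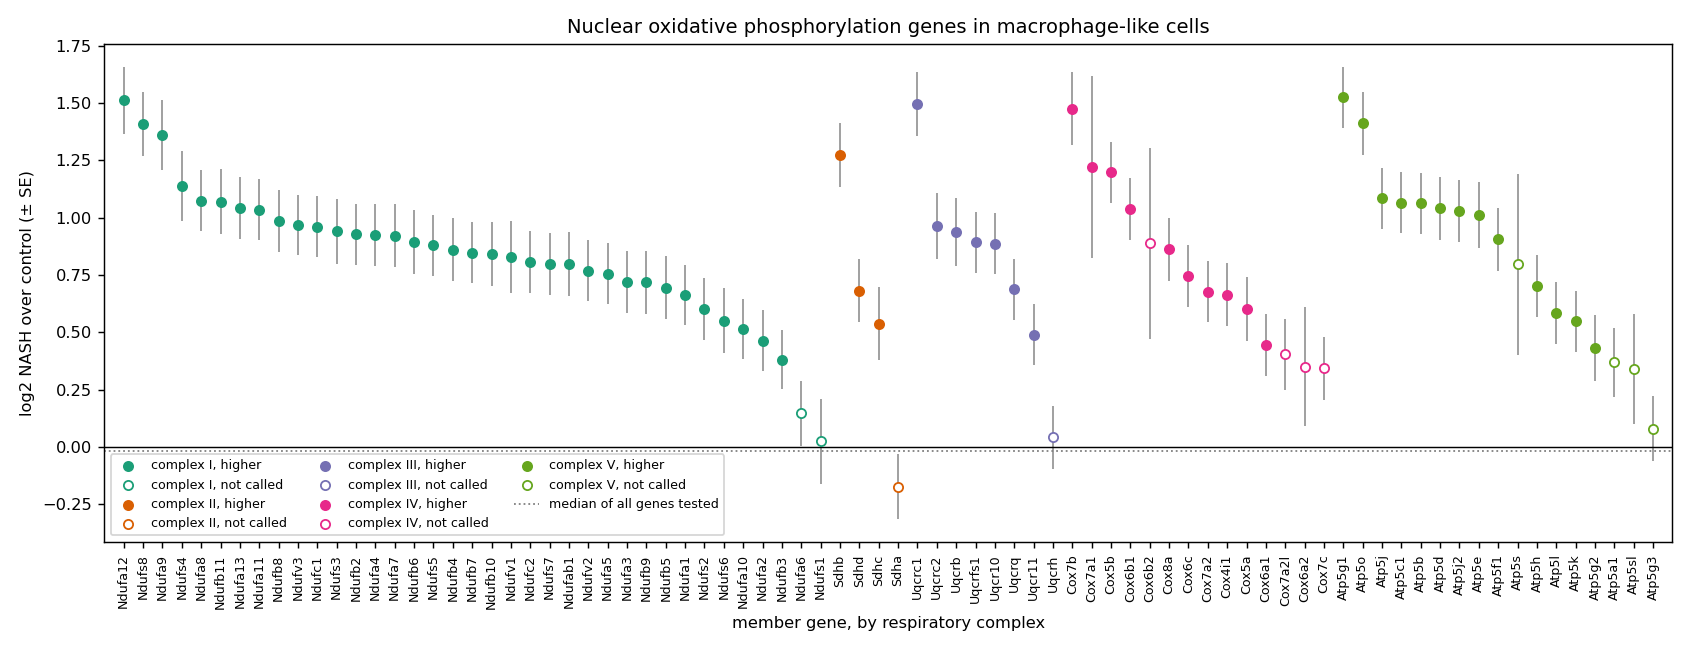
Log2 fold change, NASH over control, with its standard error (vertical axis), of the 80 tested subunit genes in macrophage-like cells, grouped by respiratory complex (horizontal axis). Filled points are called higher (68 genes) and open points not called (12 genes). Sdha is the 1 gene below 0, and Atp5g1, Ndufa12 and Uqcrc1 stand at about 1.5.

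In complex I, 35 of 37 tested members rose, with a median log2 fold change of 0.85. Ndufa12, an accessory subunit on the matrix arm, was at 70.4 and 58.5 CPM in control and 182 and 187 CPM in NASH libraries, a log2 fold change of 1.51 ± 0.145 (SE; edgeR adjusted p = 4.1e-05). Ndufs8, a core subunit that binds iron-sulfur clusters, went from 68.3 and 63.0 CPM to 166 and 183 CPM (1.41 ± 0.140, edgeR adjusted p = 4.91e-05). Ndufa9, an accessory subunit near the quinone site, went from 34.2 and 28.5 CPM to 82.0 and 79.8 CPM (1.36 ± 0.154, edgeR adjusted p = 0.000101). In all 3 genes the NASH libraries lay above both controls. The exons of Ndufa9 overlap a gene on the opposite strand, and whether counting used strand is not given in the sources used here. Ndufa4 was at 262 and 258 CPM against 510 and 477 CPM (0.92 ± 0.134, edgeR adjusted p = 0.000372).

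The 2 complex I members that were not called include the largest core subunit. Ndufs1, which carries iron-sulfur clusters of the NADH-oxidizing arm, was at 25.6 and 35.5 CPM in control and 31.1 and 30.7 CPM in NASH libraries, with overlapping diets (0.03 ± 0.185, edgeR adjusted p = 0.924). Ndufa6, an accessory subunit, was at 293 and 248 CPM against 308 and 292 CPM (0.15 ± 0.141, edgeR adjusted p = 0.421). Ndufv1 and Ndufv2, which form the NADH-oxidizing core together with Ndufs1, were called higher, at log2 fold changes of 0.83 and 0.77. These 4 genes, and Uqcrh, Atp5a1 and Atp5b below, were chosen for mention after their values were seen.

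Complex II is built from 4 nuclear subunits alone, of which 3 were called higher. The differences between the 4 genes were not tested. Sdhb, the iron-sulfur subunit, was at 110 and 99.1 CPM in control and 243 and 264 CPM in NASH libraries (1.27 ± 0.140, edgeR adjusted p = 8.3e-05). Of the membrane anchors, Sdhd went from 84.2 and 82.2 CPM to 124 and 143 CPM (0.68 ± 0.139, edgeR adjusted p = 0.00254). Sdhc went from 62.3 and 84.7 CPM to 108 and 106 CPM (0.54 ± 0.160, edgeR adjusted p = 0.0186). Sdha, the flavoprotein that oxidizes succinate and pairs with Sdhb, was at 104 and 123 CPM against 104 and 97.0 CPM, with overlapping diets (-0.17 ± 0.142, edgeR adjusted p = 0.345). With library totals as the only scaling, Sdha was called lower (-0.55). Across 18 alternative settings Sdhc lost its call in 6 and Sdhd in 3, with lowest values of 0.16 and 0.31. Sdhb kept its call in all 18. Sdhc was not called without NASH library 1 (0.53), NASH library 2 (0.56) or control library 1 (0.32).

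**Figure D3:**
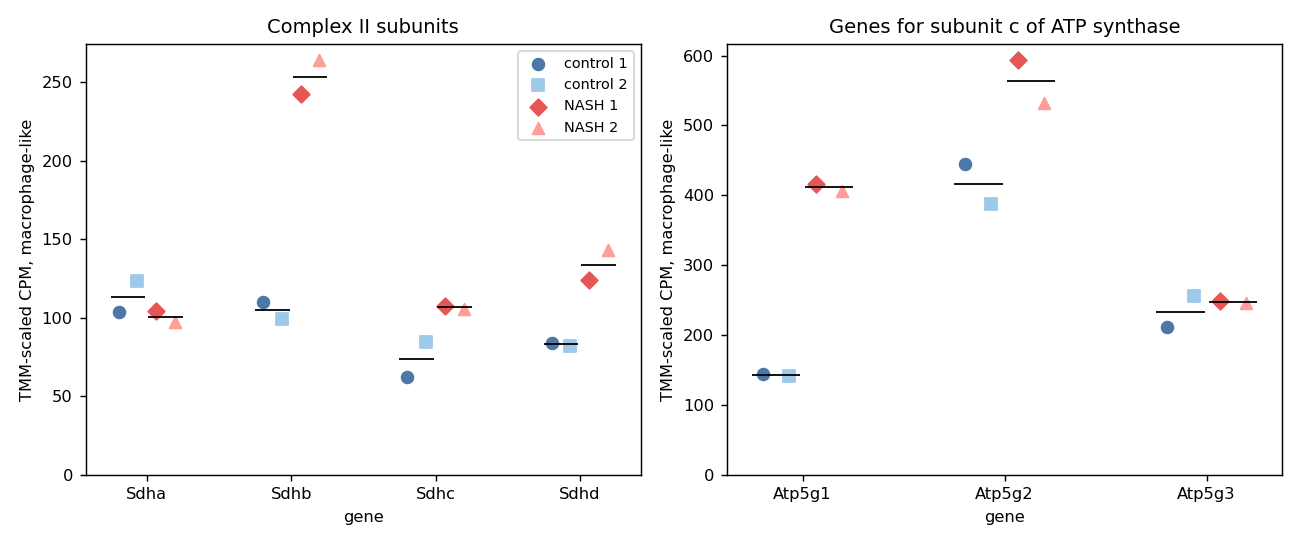
TMM-scaled CPM in macrophage-like cells (vertical axes from 0) of the 4 complex II genes (left) and the 3 genes for subunit c of ATP synthase (right), by library (symbols), with the mean of each diet as a bar. Sdhb and Atp5g1 separate by diet with no overlap, while Sdha and Atp5g3 overlap.

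In complex III, 7 of 8 members rose, with a median log2 fold change of 0.89. Uqcrc1, a core protein that faces the matrix, went from 54.5 and 50.2 CPM to 142 and 154 CPM (1.496 ± 0.139, edgeR adjusted p = 3.5e-05), and its partner Uqcrc2 from 56.3 and 46.7 CPM to 100.3 and 101 CPM (0.96 ± 0.144, edgeR adjusted p = 0.000435). Uqcrfs1, the Rieske iron-sulfur protein, went from 82.2 and 80.9 CPM to 156 and 147 CPM (0.89 ± 0.133, edgeR adjusted p = 0.000413). Uqcrh, the hinge protein at cytochrome c1, was at 695 and 628 CPM against 681 and 684 CPM, with overlapping diets (0.04 ± 0.138, edgeR adjusted p = 0.825).

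In complex IV, 10 of 14 tested members rose, with a median log2 fold change of 0.71. Cox7b, a small subunit of the membrane part, went from 139 and 104 CPM to 344 and 335 CPM (1.48 ± 0.161, edgeR adjusted p = 7.99e-05). Cox5b, a zinc-binding subunit on the matrix side, went from 230 and 233 CPM to 527 and 535 CPM (1.20 ± 0.134, edgeR adjusted p = 9.49e-05), although the count table also holds a near-identical gene, Gm11273, with which reads could be split. Cox6b1, on the intermembrane side, went from 350.3 and 339.9 CPM to 719 and 700.2 CPM (1.04 ± 0.135, edgeR adjusted p = 0.000201).

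Several complex IV subunits exist as a form found in most tissues and a form known from muscle, lung, testis or low oxygen. The common forms carried nearly all counts and were called higher: Cox4i1 (915 and 829 CPM against 1377 and 1392 CPM, 0.66), Cox6a1 (414 and 392 CPM against 559 and 539 CPM, 0.45), Cox7a2 (278 and 282 CPM against 453 and 444 CPM, 0.68) and Cox8a (499 and 475 CPM against 915 and 859 CPM, 0.86), all by edgeR, at adjusted p from 0.000619 (Cox8a) to 0.02 (Cox6a1). The Cox6a1 call was lost without NASH library 1 (0.42) or NASH library 2 (0.48) and with library totals alone (0.071), and the Cox4i1 (0.29) and Cox7a2 (0.30) calls were lost with library totals alone. Among the alternative forms, Cox7a1 was at 1.83 and 2.56 CPM against 4.72 and 5.37 CPM (1.22 ± 0.398, edgeR adjusted p = 0.0283), a call lost without control library 1 (0.97), NASH library 1 (1.31) or NASH library 2 (1.12). Cox6b2 was at 1.83 and 2.56 CPM against 4.54 and 3.58 CPM (0.89 ± 0.418, edgeR adjusted p = 0.107). Cox6a2 was at 8.87 and 7.99 CPM against 9.45 and 11.99 CPM (0.35 ± 0.260, edgeR adjusted p = 0.297), and its sign turned with library totals alone (-0.02). Cox7a2l was at 401 and 313 CPM against 487 and 460 CPM (0.40 ± 0.154, edgeR adjusted p = 0.0526). Its product is known for a role in joining complexes III and IV into supercomplexes, which was not measured in these mice. Cox4i2, Cox8b and Ndufa4l2 had 49, 2 and 11 UMIs in the whole series, and Cox7b2 and Cox8c had none, so these 5 members were not tested.

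In complex V, 13 of 17 tested members rose, with a median log2 fold change of 0.90. Atp5o, the subunit that links the catalytic head to the stalk, went from 112 and 101 CPM to 281 and 287 CPM (1.41 ± 0.138, edgeR adjusted p = 4.44e-05). Atp5j, of the peripheral stalk, went from 240.5 and 240.1 CPM to 497 and 523 CPM (1.08 ± 0.134, edgeR adjusted p = 0.000159). The exons of both overlap a gene on the opposite strand. Atp5b, the catalytic subunit of the head, rose by a log2 fold change of 1.06. Atp5a1, the other large subunit of the head, was at 209 and 267 CPM against 310 and 306 CPM and was not called (0.37 ± 0.150, edgeR adjusted p = 0.0664).

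Subunit c, which forms the rotating membrane ring of ATP synthase, is made from 3 genes on different chromosomes that encode the same mature protein behind different import sequences. Atp5g1 had the smallest p among all members: it was at 144 and 141 CPM in control and 417 and 406 CPM in NASH libraries (1.52 ± 0.134, edgeR adjusted p = 2.72e-05). Atp5g2 was at 445 and 388 CPM against 594 and 532 CPM (0.43 ± 0.144, edgeR adjusted p = 0.0308), a call lost without control library 2 (0.33), NASH library 1 (0.36) or NASH library 2 (0.52). Atp5g3 was at 212 and 256 CPM against 249 and 245 CPM, with overlapping diets (0.08 ± 0.143, edgeR adjusted p = 0.675). Across 18 alternative settings the Atp5g2 call was lost in 6, with a lowest value of 0.058, while the Atp5g1 call was kept in all 18. The differences between the 3 genes were not tested. In Kupffer-like cells, a subset of the same cells, the log2 fold changes were 1.51, 0.49 and 0.17.

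Because these genes make 1 protein and differed in whether they were called, the DNA upstream of their start sites is shown here, with Cox6a1 as an example of a member that carries an NRF1 match. Sequences are from RefSeq on GRCm38.p6, 5′ to 3′ on the gene's own strand, which is the minus strand for all 4 genes, and stop before the first exon base that GENCODE vM21 annotates for the gene within the 250 bases. The exception is the 30-base stretch of Atp5g2, which lies among the 80 bases left out of that gene's upstream stretch because of annotated exon sequence. Capitals mark a match to the motif GCGCATGCG of NRF1, a transcription factor of mitochondrial genes, read on both strands so that overlapping matches are joined.
Atp5g1, chr11:96075671-96075881: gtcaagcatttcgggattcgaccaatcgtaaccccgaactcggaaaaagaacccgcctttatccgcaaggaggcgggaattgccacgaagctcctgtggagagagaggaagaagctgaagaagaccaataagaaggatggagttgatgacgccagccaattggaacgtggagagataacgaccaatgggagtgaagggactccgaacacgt
Atp5g2, chr15:102671128-102671297: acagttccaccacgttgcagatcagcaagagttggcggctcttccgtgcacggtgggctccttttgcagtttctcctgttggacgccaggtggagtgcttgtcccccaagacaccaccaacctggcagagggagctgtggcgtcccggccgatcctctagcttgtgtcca
Atp5g2, chr15:102671070-102671099, the 30 bases around its match: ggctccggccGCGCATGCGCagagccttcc
Atp5g3, chr2:73911327-73911576: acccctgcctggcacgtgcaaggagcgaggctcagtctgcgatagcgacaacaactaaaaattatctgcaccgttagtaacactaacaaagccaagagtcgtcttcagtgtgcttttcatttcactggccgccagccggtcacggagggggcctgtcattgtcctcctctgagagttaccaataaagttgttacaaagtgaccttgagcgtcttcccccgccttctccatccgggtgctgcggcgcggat
Cox6a1, chr5:115348982-115349208: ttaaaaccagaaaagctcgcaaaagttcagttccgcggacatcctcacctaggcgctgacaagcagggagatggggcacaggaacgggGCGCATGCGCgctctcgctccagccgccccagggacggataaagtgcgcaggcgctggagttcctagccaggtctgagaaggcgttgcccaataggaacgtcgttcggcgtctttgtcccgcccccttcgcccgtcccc
Of the 3 subunit c genes, only Atp5g2 held the NRF1 motif in the 250 bases before its RefSeq start, and Atp5g1 and Atp5g3 held none of the 3 motifs searched.

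Of the 85 members, 70 matched a RefSeq promoter. In the 250 bases upstream, on either strand, the NRF1 motif GCGCATGCG was found in 6 members (8.57%) against 1.64% of all 27025 genes with a promoter. The motif CCGGAAG of the ETS family, which includes the mitochondrial gene regulator GABPA, was found in 12 members (17.1%) against 7.83%. The motif GCCATNTTG of YY1 was found in 4 members (5.71%) against 1.54%. Among members called higher in macrophage-like cells, 6, 11 and 3 of 59 held them, and among tested members not called, 0, 1 and 1 of 9. The comparison set is every gene with a promoter, expressed in these cells or not, and no set matched for expression was used. A match is a string of letters and does not show that a factor binds there.

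The 13 subunits encoded by the mitochondrial genome went the other way. Their share of macrophage-like UMIs was 5.82% and 5.73% in control and 3.79% and 3.38% in NASH libraries, or 5.78% ± 0.0606 against 3.59% ± 0.289 (SD, n = 2 each), a ratio of 0.621. By edgeR, 8 of 13 were lower and none was higher, with a median log2 fold change of -0.50. DESeq2 and the other scalings also called none higher. The nuclear members gave 0.320 UMIs for each mitochondrially encoded subunit UMI in control and 0.667 in NASH libraries, a ratio of 2.09.

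Among complex I genes of the mitochondrial genome, mt-Nd3 was at 689 and 613 CPM in control and 291 and 216 CPM in NASH libraries (-1.36 ± 0.168, edgeR adjusted p = 0.000155). mt-Nd2 was at 1840 and 1787 CPM against 1122 and 841 CPM (-0.89 ± 0.162, edgeR adjusted p = 0.00142). mt-Nd4l, mt-Nd4, mt-Nd5 and mt-Nd6 were also called lower, at -1.12, -0.50, -0.64 and -0.64, and mt-Nd1 was not called (-0.10). Of the catalytic core of complex IV, mt-Co1 was at 12138 and 12246 CPM against 8982 and 8493 CPM (-0.48 ± 0.136, edgeR adjusted p = 0.0144), while mt-Co2 (-0.15) and mt-Co3 (-0.26) were not called. mt-Cytb of complex III (-0.30) and mt-Atp6 of complex V (-0.13) were not called either. mt-Atp8 was at 212 and 304 CPM against 103 and 85.7 CPM (-1.45 ± 0.188, edgeR adjusted p = 0.000285). mt-Atp8 overlaps mt-Atp6, and mt-Nd4l overlaps mt-Nd4, so the counts of these pairs could be split either way.

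Narrower limits on cells gave fewer calls. With all deposited barcodes 69 of 80 members were called higher, where 2499 of 10293 genes were. Without doublet removal 68 of 80 were, where 2401 of 10223 genes were. Cells with over 10% mitochondrial UMIs had been removed from all libraries. With at most 5% and at least 500 genes, 236 and 239 control macrophage-like cells were left of 971 and 872, and their member share was 2.10% and 2.09%, against 2.38% in both NASH libraries. Then 43 of 80 members were called higher and none lower, with a median of 0.47. Of all 9553 genes tested there, 1319 were called higher and 1219 lower. Of the mitochondrially encoded subunits, 4 of 13 were called lower. The last count is no test of those subunits, since the limit selects cells on the same UMIs. Within cells of 2000 to 6000 UMIs, 56 of 77 tested members were higher and none was lower, with a median of 0.68. Of all 8549 genes tested there, 1393 were called higher and 1065 lower, and 4 mitochondrially encoded subunits were lower. Without NASH library 2 the mitochondrially encoded count was 4 as well.

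**Figure D4:**
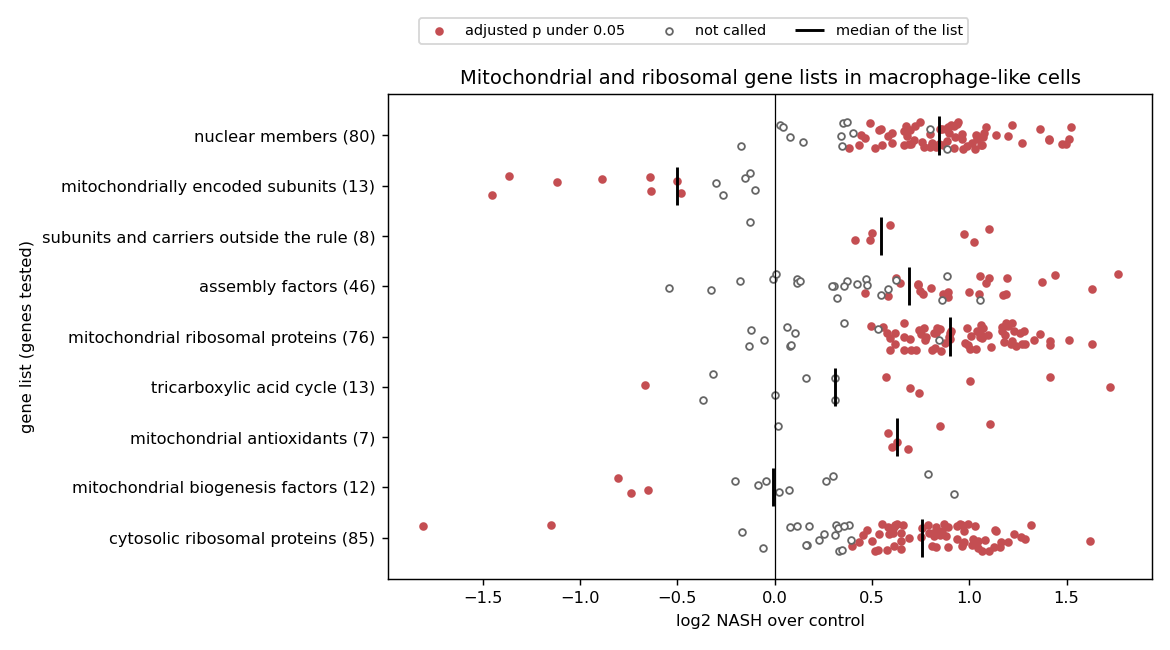
Log2 fold change, NASH over control, in macrophage-like cells (horizontal axis) for the nuclear members and 8 further gene lists (rows), 1 point per gene. Filled points have an edgeR adjusted p under 0.05, and bars mark medians, at 0.85 for the nuclear members and -0.50 for the mitochondrially encoded subunits.

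Genes that work beside the subunits were described from lists chosen by function. Of 8 carriers and subunits that the names did not catch, 7 rose and none fell (median 0.54). Atpif1, the inhibitor that binds ATP synthase, was at 339 and 311 CPM against 700.02 and 694 CPM (1.10, edgeR adjusted p = 0.000164). Cyc1 was at 45.9 and 42.8 CPM against 92.7 and 88.2 CPM (1.02, edgeR adjusted p = 0.00026). Of 46 tested assembly factors, which build the complexes, 24 rose and none fell (median 0.69). Among them Cox20, a chaperone of complex IV, was at 28.4 and 34.9 CPM against 78.9 and 84.9 CPM (1.38, edgeR adjusted p = 0.000107), and Uqcc2, of complex III assembly, was at 62.9 and 77.4 CPM against 160.3 and 160 CPM (1.19, edgeR adjusted p = 0.000154). Without NASH library 2 the counts higher were 3 of the carriers and 13 of the assembly factors, and without NASH library 1 4 of the carriers.

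Of 76 mitochondrial ribosomal protein genes, whose products translate the mitochondrially encoded subunits, 66 rose and none fell (median 0.90). The smallest p-values were those of Mrpl35 (1.63) and Mrps18a (1.33). Of 85 cytosolic ribosomal protein genes 66 rose and 2 fell (median 0.76). Rplp0 had the smallest p (1.62, edgeR adjusted p = 3.66e-05), and Rps27rt (-1.15) and Rpl39l (-1.81) were the genes called lower. The members' median of 0.85 lies between those of the 2 kinds of ribosome. In the tricarboxylic acid cycle, which supplies the electrons, 6 of 13 rose and 1 fell (median 0.31). Suclg1 was at 29.2 and 26.9 CPM against 73.4 and 76.6 CPM (1.42, edgeR adjusted p = 7.1e-05), and Fh1, the fumarase that follows complex II, was at 9.13 and 9.91 CPM against 29.3 and 33.3 CPM (1.72, edgeR adjusted p = 0.000107). Ogdh, of the oxoglutarate dehydrogenase complex, fell from 119 and 118 CPM to 74.7 and 74.8 CPM (-0.67, edgeR adjusted p = 0.00205). Of 7 mitochondrial antioxidant genes 6 rose (median 0.63), among them Txnrd2 (1.11) and Prdx3 (0.85), and Sod2 was not called (0.02). Without NASH library 2 the count was 3.

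Among regulators of mitochondrial gene expression, none of 12 tested was called higher and 3 fell (median -0.01), where 23.2% of all genes were called higher and 21% lower. None was called higher by DESeq2 either. The nuclear receptor Esrra was at 44.3 and 34.9 CPM against 24.7 and 23.1 CPM (-0.74, edgeR adjusted p = 0.00601). Gabpa was at 21.4 and 24.0 CPM against 13.3 and 15.4 CPM (-0.65, edgeR adjusted p = 0.018), and the coactivator Pprc1 was at 10.2 and 11.5 CPM against 6.18 and 6.20 CPM (-0.80, edgeR adjusted p = 0.0302). Without NASH library 1, control library 2 or NASH library 2, 1, 1 and 0 were called lower. Gabpa shares exon bases with Atp5j on the opposite strand. Nrf1 (-0.04), Yy1 (0.02), Tfam (0.30), Tfb1m (0.79), Tfb2m (0.08), Polrmt (0.92), Polg (-0.20), Gabpb1 (0.26) and Ppargc1b (-0.09) were not called, and Ppargc1a had too few counts to test.

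RNA of other cells also differed between the diets in these sums. Hepatocyte markers summed to 1132 to 1204 CPM in control and 558 to 760.2 CPM in NASH libraries, with 8 of 11 lower and none at 0. Endothelial markers summed to 197 to 248 CPM against 138 to 158 CPM, with 8 of 13 lower and 1 higher. Erythroid markers summed to 78.8 and 3500 CPM in the 2 control libraries and 77.2 to 81.2 CPM in the NASH libraries. The part of these RNAs in the subunit result was not tested. Without control library 1 or control library 2 the count of members called higher was 68 in each case, and without NASH library 1 or 2 it was 58 and 56.

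The scaling sets the zero point of these fold changes. With library totals alone the median of all genes moved from -0.02 to -0.39, the split of all called genes went from 2389 higher and 2163 lower to 1299 higher and 3972 lower, and 47 of 80 members were called higher and 1 lower. The members' median was then 0.47.

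Kupffer-like cells alone gave the same direction of change. They were 1804 of 1843 control and 788 of 1747 NASH macrophage-like cells. There 69 of 79 tested members were higher and none lower by edgeR, where 21.1% of all 9501 genes tested were called higher, and the median was 0.95. DESeq2 also called none lower, and no member had an unadjusted p under 0.05 in that direction. The smallest p belonged to Atp5o (112 and 101 CPM against 318 and 309 CPM, 1.55 ± 0.149, edgeR adjusted p = 1.72e-05), Atp5g1 (144 and 140.1 CPM against 412 and 399 CPM, 1.51 ± 0.147, edgeR adjusted p = 1.79e-05) and Ndufs8 (67.4 and 60.96 CPM against 180.2 and 203 CPM, 1.57 ± 0.155, edgeR adjusted p = 1.88e-05). Ndufs1, Sdha, Uqcrh, Ndufa6, Atp5g3 and Atp5a1 were again not called, in cells that are a part of those above. Of 10 Kupffer identity genes, 7 were lower and 1 higher in macrophage-like sums. They summed to 16359 and 20294 CPM in control and 11188 and 12446 CPM in NASH libraries. In Kupffer-like sums 5 were lower and 2 higher, at 16676 and 21284 CPM against 18277.5 and 19975 CPM. The part of this difference in cell identity in the subunit result was not tested.

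Within the C1q-high clusters the share was not uniform, and diet and cluster went together. The Fkbp5, Lepr and Cd163 cluster held 1.87% (Wilson 95% interval 1.85% to 1.88%) in control library 1, and the Marco, Cxcl13 and Hmox1 cluster 1.80% (1.79% to 1.82%) in control library 2. The NASH cells lay mainly elsewhere. Their share was 2.66% in both libraries in a Kupffer-like cluster led by Folr2, Apoc1 and Wfdc17. It was 2.38% and 2.40% in the Kupffer-like cluster led by Cd207, Trem2 and Apoe, and 2.37% and 2.39% in a cluster led by Mmp12, Mmp13 and Gpnmb. It was lowest among the NASH clusters, at 2.05% and 2.08%, in the cluster led by Cx3cr1, Olfml3 and Ms4a7.

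**Figure D5:**
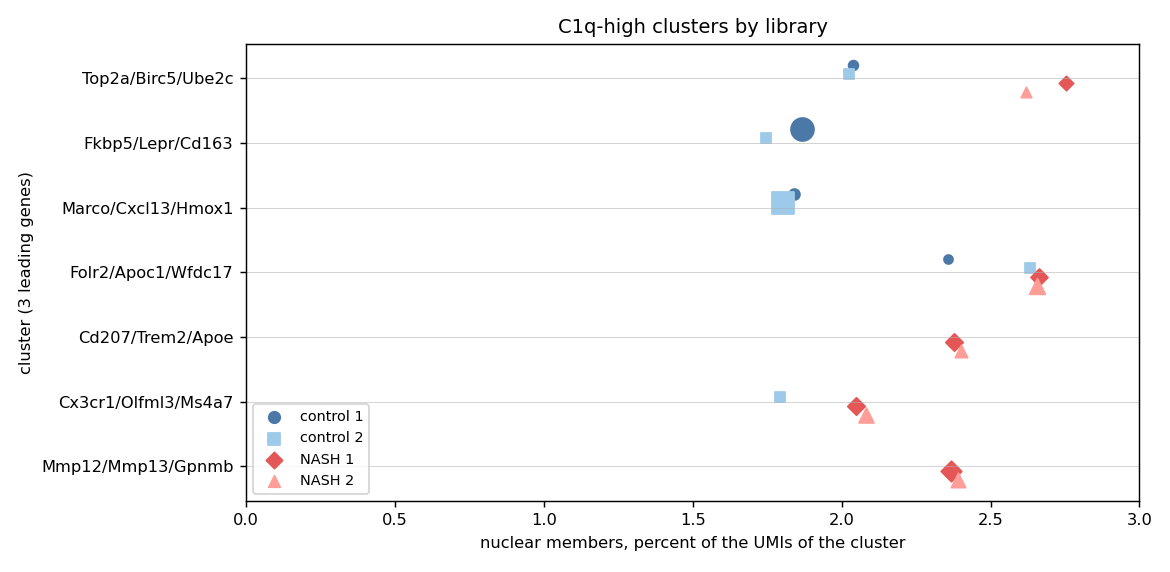
Share of UMIs from the 85 nuclear subunit genes (percent, horizontal axis from 0) in each C1q-high cluster with at least 20 cells in a library (rows, named by 3 leading genes), by library (symbols, larger for more cells). Control cells lie between 1.75% and 2.04% in 4 clusters and reach 2.36% and 2.63% in the Folr2, Apoc1 and Wfdc17 cluster.

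A few clusters held cells of both diets, and these values are a description with no test. In the Folr2, Apoc1 and Wfdc17 cluster the 26 and 32 control cells held 2.36% (2.23% to 2.49%) and 2.63% (2.52% to 2.75%), near the 2.66% of the NASH cells beside them. Those control cells were shallow, with medians of 1706.5 and 1597.5 UMIs against 9326 and 8156, and their mitochondrially encoded share was 2.72% and 2.61% against 3.94% and 3.45%. In the Cx3cr1 cluster the 31 cells of control library 2 held 1.79% (1.72% to 1.86%), below both NASH libraries. The intervals cover counting error only.

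Cycling C1q-high cells, led by Top2a, Birc5 and Ube2c, held 103 control and 143 NASH cells. Here 50 of 76 tested members were higher and none was lower by edgeR, where 12.2% of all 6231 genes tested were called higher and 9.9% lower. DESeq2 called 35 higher and none lower, and 1 member had an unadjusted p under 0.05 in the lower direction. Cox8a was at 502 and 465 CPM against 1157 and 945 CPM (1.11 ± 0.156, edgeR adjusted p = 0.00046). Uqcrc1 was at 41.5 and 44.7 CPM against 156 and 195 CPM (2.02 ± 0.289, edgeR adjusted p = 0.000509), and Cox6b1 at 313 and 339.9 CPM against 676 and 684 CPM (1.05 ± 0.161, edgeR adjusted p = 0.000823). With at least 500 genes and at most 5% mitochondrial UMIs, 2 limits changed together, 4 members were called higher.

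In the classes tested outside the C1q-high cells few members were called. Monocyte-like, neutrophil-like, natural killer cell-like and plasma cell-like cells were among the classes left out of the tests. Each of these had under 10 cells in some library, so a diet difference of the members there was not tested. In B cell-like cells 2 of 74 were higher, and none lower, where 9.35% of 2760 genes tested were called higher and 8.01% lower. Cox5a, a subunit on the matrix side of complex IV, was at 203 and 232 CPM against 336 and 382 CPM (0.75 ± 0.221, edgeR adjusted p = 0.0237). Ndufc1, a small complex I subunit, was at 74.6 and 85.1 CPM against 156 and 147 CPM (0.93 ± 0.302, edgeR adjusted p = 0.037). The Ndufc1 call was lost when any 1 library was left out (0.81 to 1.02), and the Cox5a call without control library 1 (0.62) or NASH library 2 (0.69). In endothelial-like cells 1 of 74 was higher, where 2.54% of 3543 genes were and 3.39% were lower: Atp5e, of the ATP synthase central stalk, was at 365 and 325 CPM against 696 and 599 CPM (0.90 ± 0.236, edgeR adjusted p = 0.0446), and the call was lost without control library 1 (0.96), control library 2 (0.82) or NASH library 1 (0.79). In endothelial-like cells 15 members had an unadjusted p under 0.05, all of them higher. The shares of all genes given here are at adjusted p and are no background for that count. DESeq2 called none in either class. The members' median log2 fold change was 0.16 in B cell-like and 0.30 in endothelial-like cells, against 0.01 over all genes tested in both.

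No member was called by edgeR or DESeq2 in T cell-like, dendritic cell-like, plasmacytoid dendritic cell-like or the other cycling cells, over 72, 77, 76 and 77 tested members. The shares of all genes called higher there were 0.173%, 0.752%, 0.137% and 1.02%, and the shares called lower 0.346%, 1.01%, 1.95% and 1.72%. At an unadjusted p under 0.05, to which those shares do not apply, there were 1, 2, 2 and 4 members. The members' medians were 0.01, 0.09, -0.06 and 0.10. The mitochondrially encoded subunits were lower in several of these classes as well, in 5 of 12 tested in plasmacytoid dendritic cell-like, 3 of 13 in dendritic cell-like, 7 of 12 in other cycling and 7 of 12 in B cell-like cells, while none was called in T cell-like or endothelial-like cells.

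Whether the diet difference itself differed between classes was tested by an interaction term, with the library as a block. With a term for each library, few values remain to measure the spread of a single gene, and edgeR also draws on that of other genes. The p-values of these fits are therefore not compared with those of the other tests. Against plasmacytoid dendritic cell-like cells, the difference was larger in macrophage-like cells for 48 of 78 members, where 6.41% of the 9495 genes tested were called in that direction, and smaller for none, where 2.17% were. The count was 50 without control library 1, 16 without control library 2, 19 without NASH library 1 and 16 without NASH library 2. The median difference was 0.73 for the members and 0.02 for all genes. Atp5g1 differed by 1.45 ± 0.213 (edgeR adjusted p = 2.1e-09): in plasmacytoid dendritic cell-like cells it was at 330.1 and 318 CPM in control and 352 and 279.5 CPM in NASH libraries. Cox7b differed by 1.32 ± 0.210 (edgeR adjusted p = 4.45e-08), where those cells held 316 and 357 CPM against 395 and 319.97 CPM. Atp5j differed by 1.29 ± 0.208 (edgeR adjusted p = 7.21e-08), Atp5d by 1.14 ± 0.210 (edgeR adjusted p = 4.68e-06) and Ndufs8 by 1.30 ± 0.241 (edgeR adjusted p = 4.87e-06).

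Against B cell-like cells 17 of 78 members had a larger difference in macrophage-like cells, where 3.62% of all genes did, and against dendritic cell-like cells 15 of 79, where 3.05% did. None had a smaller difference, where 4.38% and 2.41% of all genes did. In these fits the median difference over all genes was -0.27 and -0.21, and the members' was 0.42 and 0.48. The B cell-like count was 11 without control library 1, 3 without control library 2 and 4 without NASH library 1. The dendritic cell-like count was 6 without control library 2 and 0 without either NASH library, in a class with 10 and 28 control cells. Against endothelial-like, T cell-like and other cycling cells 2 of 78, 1 of 78 and 1 of 79 members differed, where 1.1%, 0.607% and 1.25% of all genes did. None differed the other way, where 0.698%, 0.405% and 0.573% did. Against cycling C1q-high cells none of 78 differed by edgeR, where 0.219% of all genes were called larger in macrophage-like cells and 0.104% smaller. At an unadjusted p under 0.05, to which those shares do not apply, there were 3 members. This test was run with edgeR alone.

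One complex IV isoform followed cell class, and its levels are given as a description, since Cox6a2 was among the genes used for clustering. Cox6a2, the heart and skeletal muscle form of Cox6a, was at 2007 and 1912 CPM of the class total in plasmacytoid dendritic cell-like cells of the control libraries and 2326 and 1824 CPM in those of the NASH libraries. In macrophage-like cells it was at 10.1, 9.13, 8.22 and 10.6 CPM in the same order. A UMI was found in 96.3% of 349 plasmacytoid dendritic cell-like cells (Wilson 95% interval 93.7% to 97.8%) at a median of 4982 UMIs, and in 4.21% of 3590 macrophage-like cells (3.60% to 4.91%) at a median of 4586 UMIs. When each cell was thinned to 1000 UMIs, which left out 1 and 22 shallower cells, the shares were 80.5% and 0.841%. Other cycling cells held 79.1 CPM (101 UMIs), cycling C1q-high cells 55.3 CPM (131 UMIs) and plasma cell-like cells 32.2 CPM (15 UMIs), while B cell-like and T cell-like cells held 8.50 and 3.86 CPM. The 2 diets overlapped in plasmacytoid dendritic cell-like cells. The exons of Cox6a2 overlap Itgad on the opposite strand.

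The remaining rare isoforms were near the level of single molecules in most classes. Cox6b2, the testis form of Cox6b, was at 43.8 CPM (56 UMIs) in other cycling cells, 19.4 CPM (54 UMIs) in monocyte-like and 14.1 CPM (48 UMIs) in dendritic cell-like cells, with none in 349 plasmacytoid dendritic cell-like or 204 endothelial-like cells. Cox7a1, the muscle form of Cox7a, was at 68.4 CPM in the 18 cholangiocyte-like cells (9 UMIs) and at 3.88 CPM in macrophage-like cells. Cox4i2, the form known from lung and low oxygen, was at 1.31 CPM in macrophage-like cells (27 UMIs) and 14.8 CPM in the 24 stellate or fibroblast-like cells (3 UMIs), and the 2 UMIs of Cox8b came from stellate or fibroblast-like cells.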

How the data were processed

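Raw UMI counts per gene and cell barcode were deposited by the authors as 1 matrix per library, on mm10 with Cell Ranger and Seurat named in the submitters' processing notes. The sources used here name no versions and no annotation. Kept cells had 200 or more genes and no more than 10% mitochondrial UMIs (1307, 1420, 1572 and 1859), after the cells with the highest Scrublet scores, 0.8% per 1000 cells, had been removed (14 to 28 per library). Clustering used scanpy 1.11.5 (2000 variable genes, 30 components, 15 neighbours, Leiden resolution 1). The naming rule was tightened after clusters were seen and before diets were compared. Counts were summed per library and class with at least 10 cells in each library. They were tested with edgeR 4.0.16 (TMM, filterByExpr, robust quasi-likelihood, adjusted p under 0.05), and with DESeq2 1.42.0 as an alternative. Interactions of class and diet had the library as a block. The steps were tested on simulated counts with log2 changes of 1 in randomly drawn genes. They recovered 66.8% of the changes in macrophage-like, 52.0% in B cell-like and 48.9% in plasmacytoid dendritic cell-like sums. The interaction of macrophage-like and plasmacytoid dendritic cell-like cells recovered 11.3%. Of the calls, 7.19%, 7.07%, 4.26% and 8.33% were false in the same order. A gene that was not called may therefore still differ. The changed genes were drawn from all that passed the filter, as many raised as lowered. These rates are thus not rates for the members, and a shift in scaling was not simulated. Named members were the 3 of smallest p per complex, all of complex II, the isoform sets, and others under rules by rank. The members and lists were chosen with earlier results of these data known. RefSeq gave promoters and GENCODE vM21 gene positions. Near-identical genes in the count table were found for 6 members, and opposite-strand exon overlap for 25.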

Additional observations from a re-analysis of the deposited data

Results flagged for a closer look

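The results here differ between cell classes in the same diet contrast, by a test of the difference itself (edgeR interaction term, Benjamini-Hochberg adjustment over all genes). The number of members with a larger diet difference in macrophage-like cells was 48 against plasmacytoid dendritic cell-like, 17 against B cell-like, 15 against dendritic cell-like, 2 against endothelial-like, 1 against T cell-like and 1 against other cycling cells. The shares of all genes with such a difference were 6.41%, 3.62%, 3.05%, 1.1%, 0.607% and 1.25% in the same order, so the last 3 counts, of 78 or 79 members, are near the share over all genes. With 1 library left out the first 3 counts fell as low as 16 (without control library 2 or NASH library 2), 3 (without control library 2) and 0 (without either NASH library). The log2 difference from plasmacytoid dendritic cell-like cells was 1.45 for Atp5g1, 1.32 for Cox7b, 1.29 for Atp5j, 1.14 for Atp5d and 1.30 for Ndufs8. From B cell-like cells it was 1.02 for Atp5e, 1.48 for Ndufs8, 1.25 for Cox7b, 1.44 for Ndufa12 and 1.07 for Ndufb11. From dendritic cell-like cells it was 1.02 for Cox5b, 1.06 for Ndufb11, 1.02 for Atp5d, 1.01 for Cox7b and 0.93 for Atp5c1. It was 1.37 for Ndufa8 and 1.30 for Ndufb11 from endothelial-like cells, 1.26 for Atp5g1 from T cell-like cells and 1.22 for Ndufa12 from other cycling cells. Median depth differed between the diets 2.66-fold in macrophage-like cells, 1.08-fold in plasmacytoid dendritic cell-like, 1.79-fold in B cell-like and 0.883-fold in dendritic cell-like cells, and its part was not tested.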

How the results depend on the processing

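In macrophage-like cells the count of members called higher was 56 to 68 with a library left out and 43 with at least 500 genes and at most 5% mitochondrial UMIs, 2 limits that were changed together (below, the stricter filter). With library totals alone 1 member was called lower there and 1 in Kupffer-like cells. The mean share of member UMIs in control macrophage-like cells was 1.78% over all barcodes and 2.09% with the stricter filter, and 2.23% in NASH cells of 2000 to 6000 UMIs. The 3 calls summed over the 6 other classes became 1 with upper-quartile factors, 0 with DESeq2, 5 when clustering left out members and mitochondrially encoded genes, and 0 to 8 with a library left out. Calls lower there were 1 with the replicate block and 0 to 1 with a library left out. Deviations of same-numbered libraries from their diet means were nearly uncorrelated in macrophage-like sums (-0.0384 across 10294 genes). With 2 libraries per diet this cannot show whether the samples were paired. The replicate block gave 68 members higher in macrophage-like cells. Interaction counts with library totals were 13 against plasmacytoid dendritic cell-like and 4 against B cell-like cells. With upper-quartile factors they were 28 (B cell-like) and 27 (dendritic cell-like). With a library left out they were 16 to 50 (plasmacytoid), 3 to 13 (B cell-like) and 0 to 19 (dendritic).

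Among the other lists, mitochondrially encoded subunits lower were 13 with library totals, 4 with the stricter filter, 4 in cells of 2000 to 6000 UMIs and 4 to 8 with a library left out. With library totals the counts higher were 3 (outside the names), 10 (assembly), 3 (tricarboxylic acid cycle) and 2 (antioxidants). With the stricter filter they were 4, 9, 39 (mitochondrial ribosome), 27 (cytosolic ribosome) and 1 (antioxidants), and biogenesis factors lower were 1. Within 2000 to 6000 UMIs they were 12 (assembly) and 3 (cycle), and biogenesis factors lower were 1. DESeq2 gave 14 assembly factors higher and 0 biogenesis factors lower. With a library left out the ranges were 3 to 7 (outside the names), 13 to 25 (assembly), 4 to 6 (cycle), 56 to 66 (mitochondrial ribosome), 45 to 73 (cytosolic ribosome) and 3 to 7 (antioxidants) higher, and 0 to 3 biogenesis factors lower.

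Signs turned for Sdha (0.0042 with the stricter filter), Cox6a2 (-0.021 with library totals, -0.19 with the stricter filter, -0.51 in cells of 2000 to 6000 UMIs), Atp5g3 (-0.29 with library totals, -0.057 to 0.22 with a library left out), mt-Nd1 (0.16 with the stricter filter, 0.058 in cells of 2000 to 6000 UMIs, -0.22 to 0.022 with a library left out) and, with the stricter filter, mt-Co2 (0.084), mt-Co3 (0.046) and mt-Atp6 (0.089). The cause was not tested. All genes called in macrophage-like cells were 1677 higher and 1123 lower with DESeq2. Classes left with under 10 cells in a library gave no value under that alternative.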
